A study of Mus musculus with 6 samples.

Results

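The genes described here are type I interferon-stimulated genes, a set of 32 known targets of interferon alpha and beta, compared between unstimulated dendritic cells and macrophages grown from mouse bone marrow. They were chosen by name, and each was read from the probe set that carries its symbol alone. A probe set of its own was found for 30 of the 32, out of 19938 genes measured in the same way. Isg15 and Ifi44 were not analysed here.

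Type I interferons bind a receptor made of the chains Ifnar1 and Ifnar2, whose kinases Jak1 and Tyk2 activate the transcription factor complex ISGF3, of which Stat2 and Irf9 are subunits. ISGF3 binds interferon-stimulated response elements in DNA and switches on antiviral genes. Myeloid cells sense microbes and can make and answer interferon, and a low tonic signal keeps part of this programme on in unstimulated cells.

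The dendritic group (n = 3 arrays) and the macrophage group (n = 3 arrays) came from one kind of culture, in which marrow from the leg bones of C57B/6 mice grew for 6 days with 20 ng/ml of the myeloid growth factor GM-CSF. No further treatment was given to either group. How the cell types were separated is not stated in the labels, nor whether replicates 1 to 3 come from separate animals, so p-values measure only the spread between these arrays, which may be technical. The platform was the Affymetrix Mouse Gene 1.0 array.

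Values are log2 RMA values, which compress differences of dim probe sets. The median of all probe sets lay between 4.79 and 4.96 on the 6 arrays, and no detection calls were used here, so values near or below that range may be background. Of 11 dendritic markers 7 were higher in dendritic cells, with a summed linear level of 9169 to 10511 on the dendritic arrays against 1409 to 2561 on the macrophage arrays. The brightest of them in dendritic cells, Ccr7 (39.3-fold higher) and Fscn1 (87.2-fold higher), both with a mean log2 value of 11.4, weigh most in that sum. The dendritic markers Itgax and Clec9a were lower in dendritic cells. All 10 measured macrophage markers were lower in dendritic cells, with a summed level of 409 to 527 on the dendritic arrays against 11425 to 14680 on the macrophage arrays. Of 5 measured monocyte markers 4 were also lower in dendritic cells, with a summed level of 172 to 243 on the dendritic arrays against 1494 to 2369 on the macrophage arrays. Of 6 NK cell markers Klrd1 alone passed and was 11.7-fold higher in dendritic cells. RNA of a whole population cannot tell fewer expressing cells from less RNA per cell.

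The interferon-stimulated genes split into both directions. With limma fitted over all genes and a Benjamini-Hochberg adjusted p under 0.05, 8 of the 30 measured members were higher in dendritic cells, 6 were lower and 16 did not pass. That is 46.7% of the members, where 21.6% of all 19938 genes passed. Over all genes 9.98% were higher and 11.6% lower. With a fold change of 2 or more demanded as well, 7 members were higher and 4 lower, while 10.3% of all genes passed both thresholds (4.47% higher and 5.82% lower).

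For 18 members (60.0%) all dendritic arrays lay on one side of all macrophage arrays, which held for 34.0% of all genes. The median log2 difference, dendritic minus macrophage, was -0.31 over the members and 0.03 over all genes. Among genes above the median level alone, which drops the dim members, the member median was 0.24, so the sign of the median depends on that filter. The higher members were Mx1, Bst2, Herc6, Usp18, Rsad2, Oasl1, Ifi35 and Adar, and the lower ones were Samd9l, Lgals3bp, Ifitm3, Oas1a, Eif2ak2 and Zbp1. Of these 14 calls, 11 held under each of the 17 alternative settings tried, and the 3 that did not are Adar, Eif2ak2 and Zbp1. Some of these settings change only the test and leave the values of the members as they are.

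**Figure D1:**
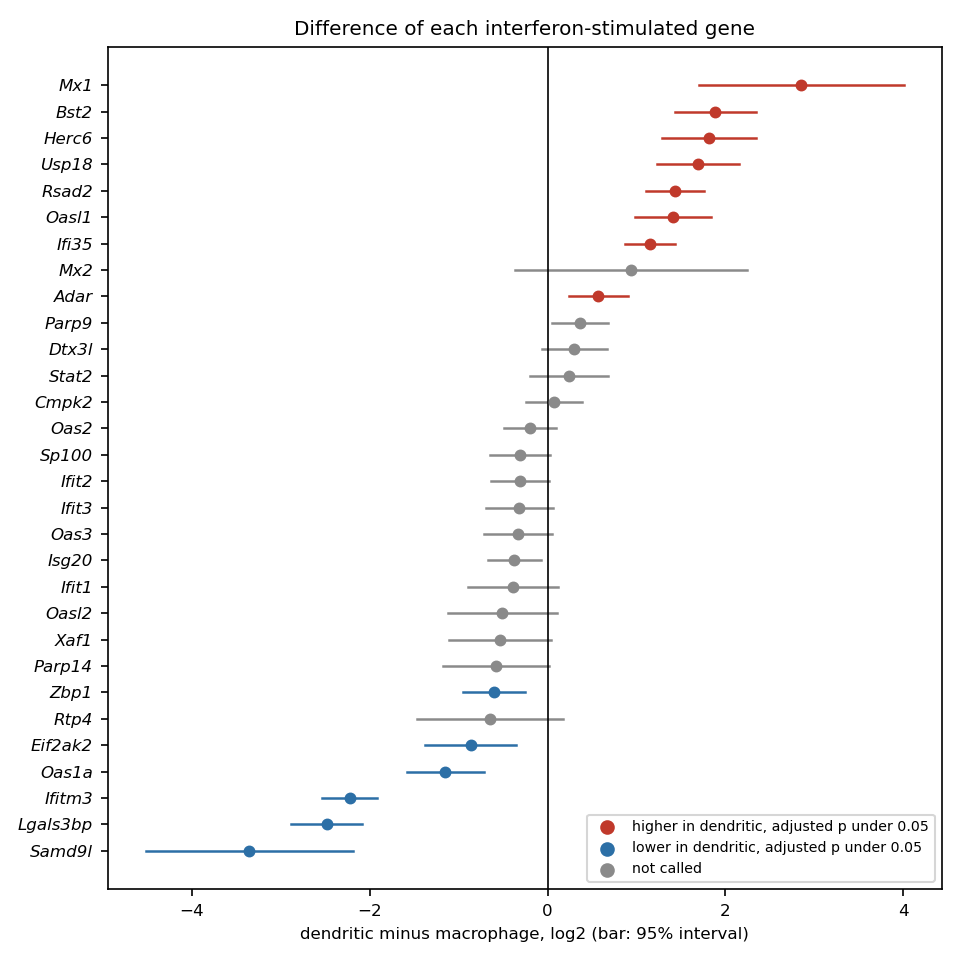
Difference of each measured member, dendritic minus macrophage, on the log2 scale (point) with its 95% interval (bar), ordered from highest to lowest. The 8 red genes and 6 blue genes passed the adjusted p threshold, from Mx1 at 2.85 to Samd9l at -3.35, and the 16 grey genes did not.

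Promoter sequences are shown here because members with the same interferon motif fell into all 3 outcomes. RefSeq windows of 300 bases (build GRCm38.p6, 250 before to 50 after the annotated start) were matched for 24 of the 32 genes. Mx1, Mx2, Usp18, Zbp1, Oas2, Rtp4, Parp9 and Parp14 were not matched. Searched on both strands, the response element core GAAANNGAAA (TTTCNNTTTC on the other strand) was held by 9 of the 22 measured and matched members (40.9%), against 3.99% of all 27025 genes with a window. It was held by 2 of 6 members that were higher (Bst2 and Rsad2), 3 of 5 that were lower (Ifitm3, Oas1a and Eif2ak2) and 4 of 11 that did not pass (Ifit1, Ifit3, Oas3 and Stat2). The core of the gamma-activated site, TTCNNNGAA, the same on either strand, was held by 8 of the 22 (36.4%), against 9.55% of all genes. By outcome it was held by 3 of 6 higher members (Adar, Bst2 and Ifi35) and 3 of 5 lower ones (Oas1a, Ifitm3 and Eif2ak2). Among members that did not pass, 2 of 11 held it (Isg20 and Ifit2). In Bst2 and Ifitm3 a match of this motif overlaps a match of the response element. A match is a run of letters and not a measured binding site.

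In the windows below, capitals mark GAAANNGAAA or its other-strand form. Bst2 and Rsad2 were higher in dendritic cells, Ifitm3 and Oas1a were lower, and Ifit1 was dim in both. The windows lie at chr8:71537423-71537722, minus strand (Bst2), chr12:26456403-26456702, minus strand (Rsad2), chr7:141010695-141010994, minus strand (Ifitm3), chr5:120907476-120907775, minus strand (Oas1a), and chr19:34640639-34640938, plus strand (Ifit1), and each reads 5′ to 3′ along its gene.
Bst2: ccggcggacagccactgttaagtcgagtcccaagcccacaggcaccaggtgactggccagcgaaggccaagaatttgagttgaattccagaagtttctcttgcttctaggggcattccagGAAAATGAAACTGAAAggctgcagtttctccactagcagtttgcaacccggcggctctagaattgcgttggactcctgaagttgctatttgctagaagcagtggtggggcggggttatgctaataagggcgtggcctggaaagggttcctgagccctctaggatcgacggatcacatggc
Rsad2: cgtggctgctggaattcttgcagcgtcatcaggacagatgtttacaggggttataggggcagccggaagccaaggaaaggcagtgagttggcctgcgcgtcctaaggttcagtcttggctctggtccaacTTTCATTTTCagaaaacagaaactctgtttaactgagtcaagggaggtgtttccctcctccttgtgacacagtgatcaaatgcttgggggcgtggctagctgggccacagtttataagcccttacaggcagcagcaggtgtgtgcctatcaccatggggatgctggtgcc
Ifitm3: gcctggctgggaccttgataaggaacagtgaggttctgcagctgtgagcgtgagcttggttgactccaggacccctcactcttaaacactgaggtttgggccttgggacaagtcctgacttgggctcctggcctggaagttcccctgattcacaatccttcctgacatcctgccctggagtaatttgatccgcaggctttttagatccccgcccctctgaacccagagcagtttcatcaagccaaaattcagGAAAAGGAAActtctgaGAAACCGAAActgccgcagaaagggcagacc
Oas1a: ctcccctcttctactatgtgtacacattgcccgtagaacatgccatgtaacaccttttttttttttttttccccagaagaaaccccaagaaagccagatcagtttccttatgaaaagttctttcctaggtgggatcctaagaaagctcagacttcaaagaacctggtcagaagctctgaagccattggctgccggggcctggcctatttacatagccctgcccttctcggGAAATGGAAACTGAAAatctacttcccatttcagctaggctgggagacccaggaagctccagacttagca
Ifit1: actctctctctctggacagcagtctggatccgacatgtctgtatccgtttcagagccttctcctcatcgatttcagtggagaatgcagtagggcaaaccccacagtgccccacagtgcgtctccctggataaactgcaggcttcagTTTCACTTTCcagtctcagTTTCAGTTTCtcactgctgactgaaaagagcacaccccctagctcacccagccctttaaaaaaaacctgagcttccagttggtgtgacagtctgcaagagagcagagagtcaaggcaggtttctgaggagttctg
The Bst2 and Oas1a windows each hold overlapping matches. Those of Bst2 lie well upstream of the start and those of Oas1a just before it, while both Ifitm3 matches lie just after it.

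**Figure D2:**
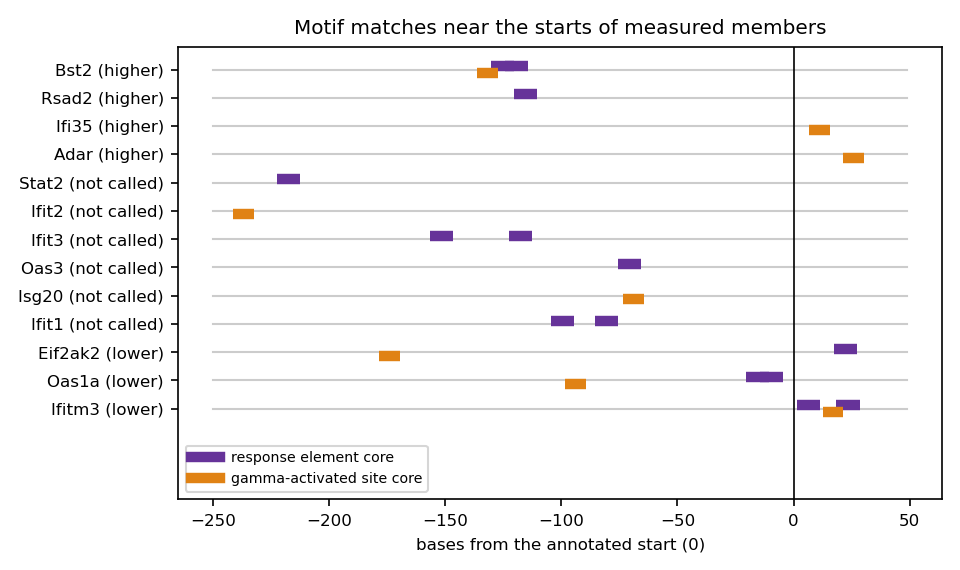
Position of motif matches in the 300-base windows of the measured members that hold any, as distance in bases from the annotated start (0), with the call of each gene in brackets and genes ordered by difference. Purple bars mark the response element core and orange bars the gamma-activated site core; genes with either motif stand among the higher, the not called and the lower.

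Of the Isg15 system only 2 genes were measured, Usp18 and Herc6. Both were higher in dendritic cells, where 9.98% of all genes were. Isg15 itself was not measured alone, and the probe set it shares with Gm9706 differed by 0.34 with overlapping values. Isg15 is a ubiquitin-like protein that is joined to other proteins. Usp18 (probe set 10541307), which removes it and also blocks signalling at the interferon receptor, had log2 values of 7.61, 7.21 and 7.22 on the dendritic arrays, against 6.06, 5.59 and 5.33 on the macrophage arrays. Every dendritic array lay above every macrophage array, with a difference of 1.69 ± 0.20 (SE, n = 3 each; 3.22-fold; limma adjusted p = 0.000339). Herc6 (probe set 10538590), the ligase that attaches Isg15 in mice, had 8.50, 8.11 and 7.65 in dendritic cells, against 6.61, 6.20 and 6.01 in macrophages. These did not overlap either, and differed by 1.81 ± 0.23 (3.52-fold; limma adjusted p = 0.000474).

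Antiviral effector genes held the largest differences in both directions. Of 9 measured, 3 were higher (Mx1, Bst2 and Rsad2), 2 were lower (Samd9l and Ifitm3) and 4 did not pass. That is 55.6% called, against 21.6% of all genes. The Mx genes encode dynamin-like GTPases that block incoming viruses, and C57BL/6 mice, like most laboratory strains, carry a defective Mx1. Mx1 (probe set 10441233) had log2 values of 9.45, 7.78 and 6.96 on the dendritic arrays, against 5.35, 5.07 and 5.21 on the macrophage arrays. All dendritic arrays were above all macrophage arrays but spread widely among themselves, dendritic replicate 1 being the highest. The difference was 2.85 ± 0.51 (7.23-fold; limma adjusted p = 0.00332). Without dendritic replicate 1 it was 2.16 (4.47-fold; limma adjusted p = 0.000316), and without replicate 1 of both populations 2.23 (4.69-fold).

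Mx2 (probe set 10437224), the neighbouring family member, followed the same order within dendritic cells. It had 6.36, 4.46 and 3.51 on the dendritic arrays, against 3.90, 3.71 and 3.91 on the macrophage arrays. The populations overlapped, since dendritic replicate 3 was the lowest of all. The difference of 0.94 did not pass (95% interval -0.37 to 2.24; limma adjusted p = 0.352). It was 0.14 without dendritic replicate 1, 0.17 without replicate 1 of both populations and 1.57 without dendritic replicate 3, with an adjusted p of 0.0537 to 0.740 over the alternatives. The summed level of 13 neutrophil markers followed the same order on the dendritic arrays, at 5523, 3430 and 2249. On the macrophage arrays that sum was 6185, 2481 and 3114, while Mx2 stayed between 3.71 and 3.91. The summed level of 6 NK cell markers also fell in that order on the dendritic arrays, at 499, 269 and 188. On the macrophage arrays it was 92, 95 and 114. Of these 6, only 1 was highest on dendritic replicate 1 among the dendritic arrays, namely Klrd1 (8.76, 7.52 and 6.56). Klrd1 had 4.39, 3.38 and 4.45 on the macrophage arrays. The part of the neutrophil and NK cell markers in the Mx values was not tested. Related sequences can share signal on an array, and whether Mx1 and Mx2 do so here was not tested.

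Bst2 (tetherin, probe set 10579532) holds budding viruses on the cell surface. It had log2 values of 10.94, 10.96 and 11.30 on the dendritic arrays, against 8.76, 9.30 and 9.47 on the macrophage arrays. There was no overlap, and the difference was 1.89 ± 0.20 (3.70-fold; limma adjusted p = 0.000147). Bst2 is also a marker of plasmacytoid dendritic cells. Of the 8 measured markers of that cell type 2 were higher in dendritic cells, Bst2 itself and Pacsin1. The summed linear level of the other 7 was 424 to 505 on the dendritic arrays, against 370 to 433 on the macrophage arrays. Siglech, the defining lectin of that cell type, was below the array medians on all arrays. It averaged 4.60 ± 0.12 in dendritic cells, against 4.49 ± 0.19 in macrophages (SD, n = 3 each; limma adjusted p = 0.743).

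Rsad2 (viperin, probe set 10399710) makes a nucleotide that ends viral RNA chains. Its values were 5.94, 5.99 and 6.34 in dendritic cells, against 4.69, 4.57 and 4.71 in macrophages. The macrophage arrays were all below the array medians and the dendritic arrays all above, a difference of 1.43 ± 0.14 (2.70-fold; limma adjusted p = 0.000105). Cmpk2 (probe set 10395039), a nucleotide kinase whose gene lies next to Rsad2 in the RefSeq gene table, did not pass the test. It had 3.19, 3.31 and 3.06 in dendritic cells, against 3.30, 2.96 and 3.10 in macrophages, all below the array medians. The difference was 0.07 (95% interval -0.24 to 0.38; limma adjusted p = 0.843), and its sign turned without macrophage replicate 2 (-0.0089).

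Samd9l (probe set 10542911), an antiviral factor that represses translation and restrains growth, had the largest difference downward. It had log2 values of 4.99, 3.88 and 3.46 on the dendritic arrays, against 8.65, 6.93 and 6.81 on the macrophage arrays. Nothing overlapped, and replicate 1 was the highest of its population in both. The difference was -3.35 ± 0.52 (10.2-fold; limma adjusted p = 0.00142), and -2.76 (6.77-fold; limma adjusted p = 0.000781) without macrophage replicate 1. Ifitm3 (probe set 10569017), a membrane protein that stops viruses from fusing in endosomes, had 8.94, 9.14 and 8.95 in dendritic cells, against 11.35, 11.06 and 11.31 in macrophages. These tight groups lay far apart, at -2.23 ± 0.14 (4.68-fold; limma adjusted p = 5.71e-06). The other effectors measured were the exonuclease Isg20 (difference -0.37, limma adjusted p = 0.0798) and the chaperone Rtp4 (-0.64, limma adjusted p = 0.296). Rtp4 differed by -0.01 when replicate 1 of both populations was left out.

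**Figure D3:**
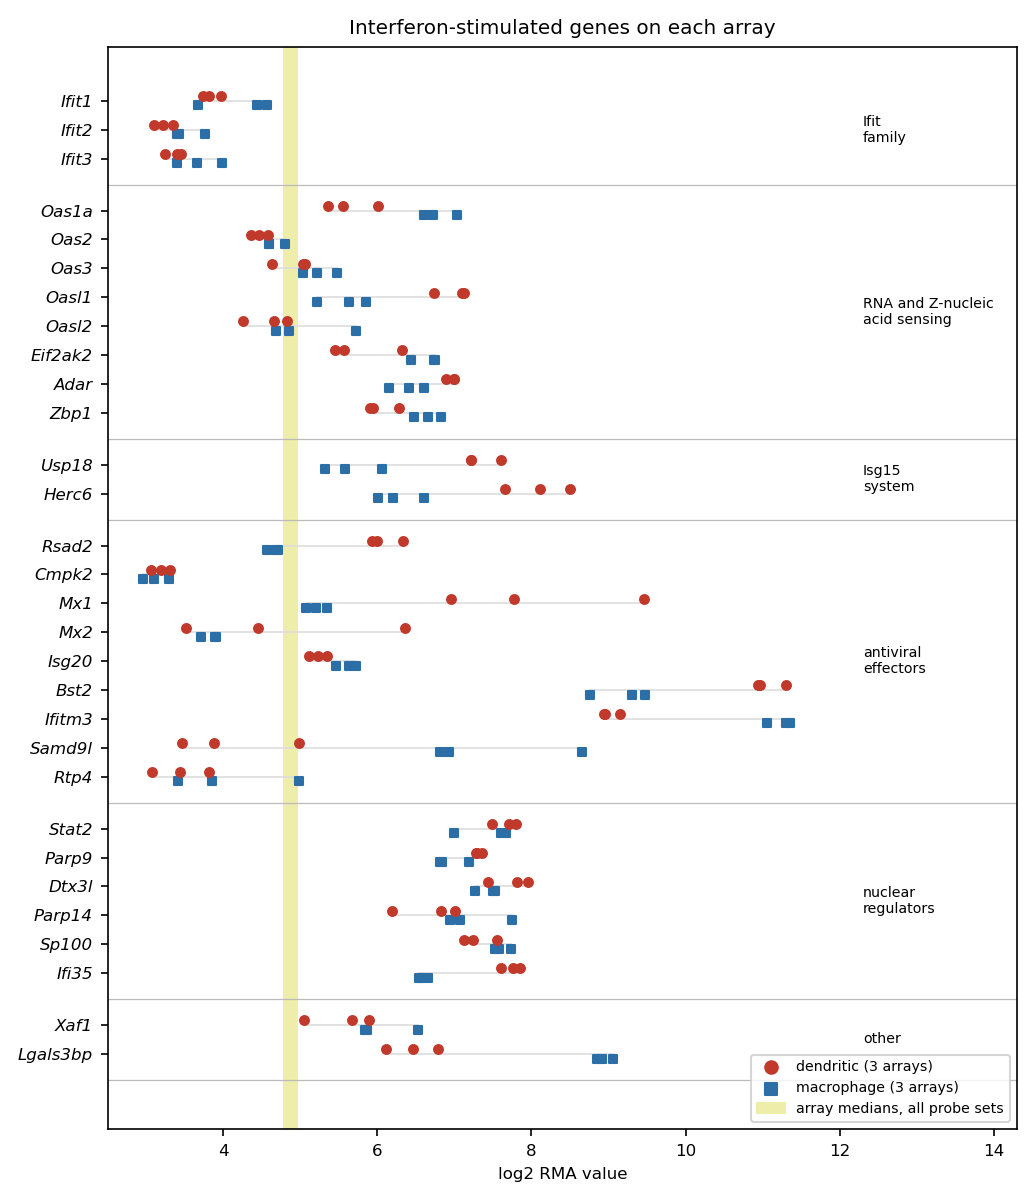
Log2 RMA value of each measured member on each array, with 3 dendritic arrays (red circles) and 3 macrophage arrays (blue squares) per gene, grouped by role. The yellow band spans the medians of all probe sets on the 6 arrays (4.79 to 4.96). The Ifit genes and Cmpk2 lie left of the band on all arrays, while Samd9l, Ifitm3 and Lgals3bp show the macrophage points far to the right of the dendritic ones and Mx1 and Bst2 the reverse.

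Genes that sense or act on double-stranded RNA and Z-form nucleic acid also moved both ways. Of 8 measured, 2 were higher in dendritic cells (Oasl1 and Adar), 3 were lower (Oas1a, Eif2ak2 and Zbp1) and 3 did not pass. The share called was 62.5%, against 21.6% of all genes. Oas1a makes the messenger 2-5A, which activates an RNA-degrading enzyme. Oas1a (probe set 10533256) had log2 values of 5.36, 6.01 and 5.55 on the dendritic arrays, against 7.04, 6.72 and 6.61 on the macrophage arrays. All dendritic arrays were lower, by 1.15 on the log2 scale (-1.15 ± 0.19; 2.22-fold; limma adjusted p = 0.00223). The related Oasl1 (probe set 10524631), which lacks that enzyme activity and is known in mice to restrain the translation of Irf7, went the other way. It had 6.74, 7.09 and 7.13 in dendritic cells, against 5.22, 5.63 and 5.86 in macrophages, with no overlap and a difference of 1.41 ± 0.19 (2.66-fold; limma adjusted p = 0.000598).

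Of the remaining family members, Oas2 differed by -0.20, Oas3 by -0.33 and Oasl2 by -0.51, with limma adjusted p values of 0.388, 0.232 and 0.264. Oas3 and Oasl2 overlapped between the populations and Oas2 did not. These genes lay near the array medians. The Oas genes are a family of close relatives, so signal shared between their probe sets cannot be told apart.

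The other 3 called genes of this group had smaller differences, and each lost its call in some settings. Eif2ak2 (PKR, probe set 10452980), a kinase that halts translation, had log2 values of 6.32, 5.45 and 5.57 in dendritic cells, against 6.74, 6.75 and 6.44 in macrophages. Dendritic replicate 1 came close to the macrophage arrays without overlap, and the difference was -0.86 ± 0.22 (limma adjusted p = 0.0228). Its adjusted p was 0.0880 without dendritic replicate 2, 0.0857 without dendritic replicate 3, 0.0560 without macrophage replicate 1, 0.0790 without macrophage replicate 2 and 0.0645 when adjusted over all probe sets (0.000553 to 0.0880 over the alternatives).

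Adar (probe set 10493565) edits adenosine in double-stranded RNA and so keeps a cell's own RNA from being sensed. It had 6.89, 6.99 and 7.00 in dendritic cells, against 6.61, 6.41 and 6.15 in macrophages. The dendritic arrays were closely grouped above all macrophage arrays, by 0.57 ± 0.15 (limma adjusted p = 0.0203). The adjusted p of Adar was 0.0655 without dendritic replicate 2, 0.0687 without dendritic replicate 3, 0.0683 without macrophage replicate 2 and 0.0785 without macrophage replicate 3 (0.00348 to 0.0785 over the alternatives). Zbp1 (probe set 10490150), which binds Z-form nucleic acid and starts cell death, had 5.95, 6.28 and 5.90 in dendritic cells, against 6.65, 6.82 and 6.47 in macrophages. No values overlapped, at a difference of -0.60 ± 0.15 (limma adjusted p = 0.0205). Its adjusted p was 0.0804 without dendritic replicate 3, 0.0974 without macrophage replicate 2 and 0.0578 without replicate 1 of both populations (0.00397 to 0.0974 over the alternatives).

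The Ifit genes, whose proteins bind foreign RNA ends and block their translation, were dim in both populations. All 3 lay below the array medians on all 6 arrays, and none passed. Ifit1 (probe set 10462623) had log2 values of 3.81, 3.73 and 3.97 in dendritic cells, against 4.57, 3.68 and 4.44 in macrophages, overlapping through macrophage replicate 2. Its difference was -0.39 (95% interval -0.90 to 0.12; limma adjusted p = 0.306), and without that array -0.67 (limma adjusted p = 0.0229; 0.0229 to 0.926 over the alternatives). Ifit2 and Ifit3 differed by -0.31 and -0.32, with limma adjusted p values of 0.196 and 0.253. Besides the Ifit genes, Cmpk2 was the only other measured member below the array medians on every array, while 19 of the 30 lay above them on every array.

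Of 6 measured nuclear regulators of the programme 1 passed (16.7%), close to the 21.6% of all genes. Ifi35 (probe set 10381408), a leucine zipper protein that binds Nmi, was higher in dendritic cells. It had log2 values of 7.76, 7.60 and 7.85 on the dendritic arrays, against 6.56, 6.66 and 6.54 on the macrophage arrays. Both groups were tight and did not overlap, at a difference of 1.15 ± 0.12 (2.22-fold; limma adjusted p = 0.000175). Stat2, the ISGF3 subunit, had 7.49, 7.71 and 7.80 in dendritic cells, against 6.99, 7.61 and 7.67 in macrophages. The groups overlapped, and the difference of 0.24 did not pass (95% interval -0.20 to 0.68; limma adjusted p = 0.503).

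Parp9 and Dtx3l are neighbouring genes whose proteins form a complex that modifies chromatin, and Parp14 is a related ADP-ribose transferase. Parp9 had 7.36, 7.29 and 7.29 in dendritic cells, against 7.19, 6.82 and 6.84 in macrophages. It did not overlap, yet its difference of 0.36 did not pass (limma adjusted p = 0.109). It passed without macrophage replicate 1 (adjusted p = 0.0384), without replicate 1 of both populations (0.0313), after a further quantile normalization (0.0442) and with array weights (0.0165), within 0.0165 to 0.358 over the alternatives. Dtx3l differed by 0.30 (limma adjusted p = 0.265). Parp14 had 7.00, 6.83 and 6.19 in dendritic cells, against 7.75, 7.08 and 6.94 in macrophages, and did not pass (-0.58, limma adjusted p = 0.176). With the replicate number as a block the limma adjusted p of Parp14 was 0.0184. Sp100, a scaffold of nuclear bodies, differed by -0.31 (limma adjusted p = 0.206), with an adjusted p of 0.0467 without dendritic replicate 1 and 0.0410 with array weights.

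The last members are Lgals3bp, a secreted glycoprotein that binds galectins, and Xaf1, which promotes cell death. Lgals3bp (probe set 10393573) had log2 values of 6.79, 6.47 and 6.12 on the dendritic arrays, against 9.06, 8.92 and 8.85 on the macrophage arrays. The groups lay far apart, at -2.48 ± 0.18 (5.59-fold; limma adjusted p = 1.46e-05). Xaf1 had 5.67, 5.90 and 5.05 in dendritic cells, against 6.52, 5.84 and 5.87 in macrophages. These overlapped and the difference of -0.54 did not pass (limma adjusted p = 0.195).

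Members also differed between arrays of the same population. Macrophage replicate 1 was the highest macrophage array for 19 of 30 members (63.3%), against 30.7% of all genes, and dendritic replicate 1 was the highest dendritic array for 13 (43.3%), against 32.1%. Replicate 1 was highest in both populations for 8 members (26.7%, against 17.3% of all genes), namely Mx1, Usp18, Herc6, Samd9l, Parp9, Parp14, Sp100 and Lgals3bp. Neutrophil markers were also high on replicate 1 of both populations. The summed linear level of 13 of them was 5523, 3430 and 2249 on dendritic replicates 1 to 3, against 6185, 2481 and 3114 on macrophage replicates 1 to 3. Of these 13, 9 were highest on dendritic replicate 1 among the dendritic arrays and 12 on macrophage replicate 1 among the macrophage arrays. The summed level of 5 monocyte markers was 243, 237 and 172 on the dendritic arrays, against 2369, 1494 and 1854 on the macrophage arrays. Of these 5, 4 were highest on macrophage replicate 1 among the macrophage arrays, but only 1 on dendritic replicate 1 among the dendritic arrays. The part of the neutrophil and monocyte markers in the members' values was not tested.

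The spread within a population was above the 95th percentile of all genes for 6 members, Mx2, Samd9l, Mx1, Rtp4, Oasl2 and Parp14. The highest dendritic array held 5.64 times the Mx1 signal and 7.19 times the Mx2 signal of the lowest. Among macrophage arrays these ratios were 1.21 and 1.15. For Samd9l the ratio was 2.88 among dendritic and 3.57 among macrophage arrays.

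**Figure D4:**
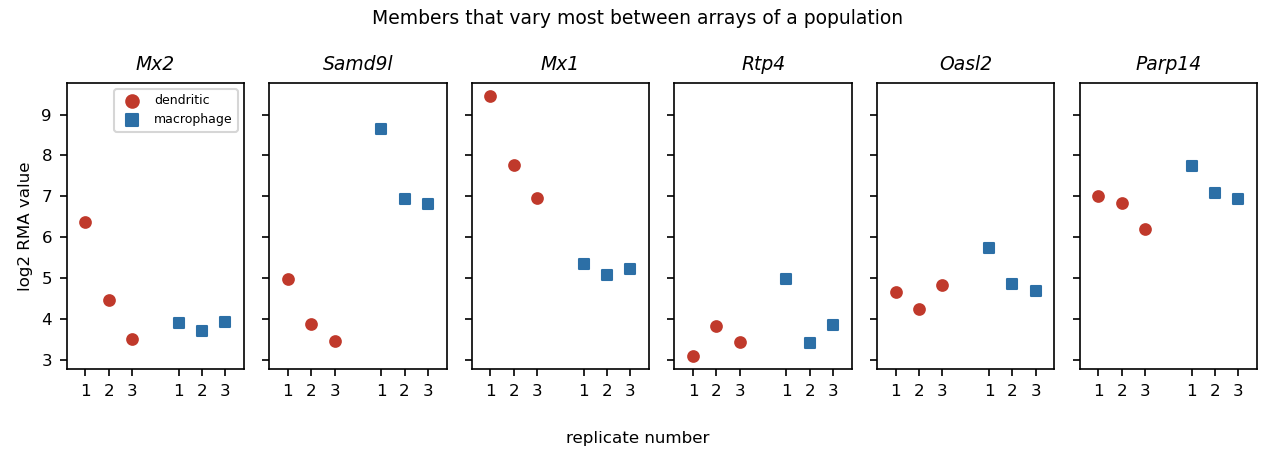
Log2 RMA values of the 6 members with the widest spread within a population, by replicate number, with dendritic arrays as red circles and macrophage arrays as blue squares. Mx1 and Mx2 vary among dendritic arrays (highest on replicate 1) and hardly among macrophage arrays, whereas Samd9l is highest on replicate 1 of both.

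No ligand of the pathway passed the test. Of 19 type I interferon genes 14 were measured, and limma called 0 of them (0 also at an unadjusted p under 0.05; lowest adjusted p = 0.509). The 95% intervals of these differences all lay between -0.88 and 0.64. Log2 values of the 14 genes ran from 2.37 to 6.76, and 5 of these genes lay above the array medians on every array. Ifnb1 (interferon beta) had log2 values of 3.11, 3.70 and 3.46 in dendritic cells, against 3.29, 3.52 and 3.40 in macrophages. These are far below the array medians and overlap, with a difference of 0.02 (limma adjusted p = 0.968). The interferon alpha genes are near-identical copies, so which of them a probe set measures is uncertain.

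Of the receptors, kinases and ISGF3 subunits 3 were higher and 3 lower in dendritic cells among 11 measured (54.5% called, against 21.6% of all genes). Ifnar2 was lower in dendritic cells, at 8.80, 8.95 and 8.91, against 9.45, 9.18 and 9.39 in macrophages (-0.45 ± 0.13; limma adjusted p = 0.0344). That call was lost in 9 of 17 alternatives. The adjusted p of Ifnar2 was 0.0662, 0.0652 and 0.0833 without dendritic replicates 1, 2 and 3, 0.107 and 0.113 without macrophage replicates 1 and 3, 0.111 without replicate 1 of both, 0.0999 with 75th percentile centring, 0.0604 over all probe sets and 0.0558 with array weights. Ifnar1 differed by -0.39 and did not pass (limma adjusted p = 0.191), but passed with the replicate number as a block (0.0389). The interferon gamma receptor chain Ifngr1 (-2.08 ± 0.30) and Il10rb (-1.29 ± 0.21), shared by the receptors of interleukin 10 and interferon lambda, were lower.

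The kinases Jak2 (2.12 ± 0.27) and Tyk2 (0.73 ± 0.15) and the ISGF3 subunit Irf9 (0.59 ± 0.14; limma adjusted p = 0.0139) were higher in dendritic cells. Irf9 had 7.22, 6.83 and 6.97 in dendritic cells, against 6.45, 6.47 and 6.33 in macrophages, with no overlap. Its adjusted p was 0.0589 without macrophage replicate 3 (0.00393 to 0.0589 over the alternatives). Jak1 differed by -0.19 and did not pass (limma adjusted p = 0.572).

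Of 19 genes listed here as inhibitors of interferon signalling 7 were higher and 4 lower (57.9% called, against 21.6% of all genes). Besides Usp18, the largest upward were Trim24 (1.67 ± 0.17), a corepressor, and Pias3 (1.39 ± 0.14), an inhibitor named for its action on Stat3. The feedback inhibitor Socs1 was higher by 0.73 ± 0.21 (limma adjusted p = 0.0395). The adjusted p of Socs1 was 0.111 and 0.141 without dendritic replicates 2 and 3, 0.111 and 0.116 without macrophage replicates 1 and 3, and 0.0959 over all probe sets. The higher members numbered 4 without dendritic replicate 3, without macrophage replicate 3 and over all probe sets. The lower ones were led by the galectin Lgals9 (-3.40 ± 0.15), the phagocytosis-inhibiting receptor Sirpa (-2.42 ± 0.14) and Irf2bp2 (-0.93 ± 0.14), a corepressor.

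Of the genes that induce interferon 22 were measured, of which 10 were lower and 3 higher in dendritic cells, where 11.6% and 9.98% of all genes were. The RNA receptor Tlr7 averaged 2.96 ± 0.16 in dendritic cells, against 7.48 ± 0.21 in macrophages (SD, n = 3 each; limma adjusted p = 3.24e-07), a difference of -4.52 ± 0.15, and its chaperone Unc93b1 (-2.33 ± 0.16) and the lipopolysaccharide receptor Tlr4 (-3.96 ± 0.25) were also lower. Higher were the transcription factor Irf1 (2.73 ± 0.17; limma adjusted p = 6.38e-06), the adaptor Traf6 (1.73 ± 0.12) and the DNA receptor Tlr9 (0.48 ± 0.13; limma adjusted p = 0.0293). Tlr9 lost its call in 7 of 17 alternatives, with an adjusted p of 0.0999 and 0.0597 without dendritic replicates 2 and 3, 0.0961, 0.0537 and 0.0839 without macrophage replicates 1, 2 and 3, 0.0550 without replicate 1 of both and 0.0542 over all probe sets. The higher genes numbered 5 with array weights. Irf3 and Irf7, the factors that switch on interferon genes, differed by 0.22 and -0.38 and did not pass (limma adjusted p = 0.354 and 0.175).

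**Figure D5:**
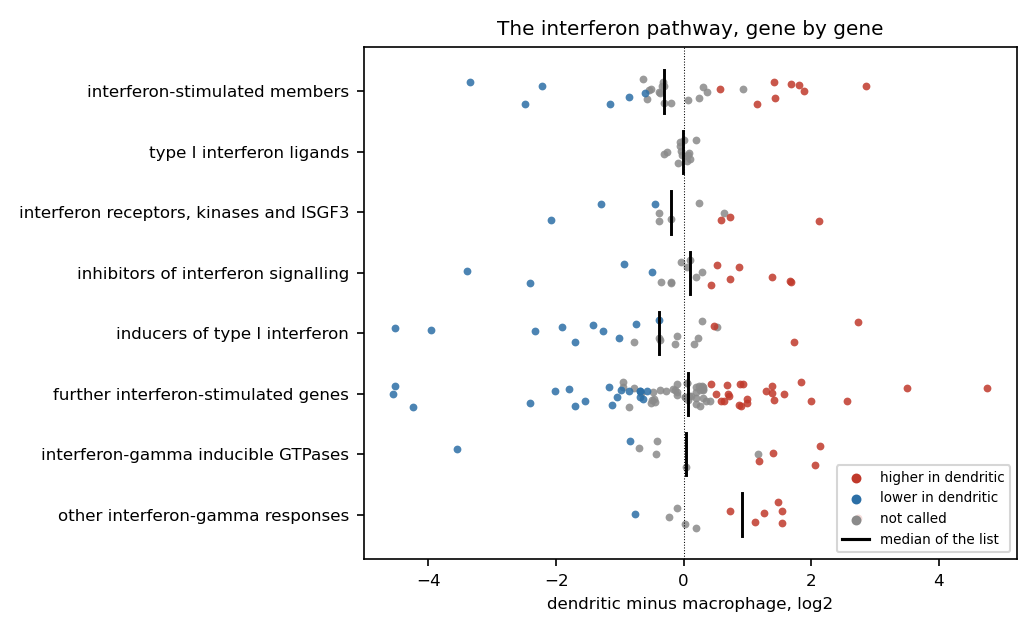
Dendritic minus macrophage difference on the log2 scale for each gene (point) of the 30 measured members and of 7 lists of the interferon pathway, with the median of each list as a black bar. Type I interferon ligands sit close to 0, while the members and the further interferon-stimulated genes spread to both sides.

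Interferon-stimulated genes outside the 32 also went both ways. Of 79 measured in a further list, which shares 8 genes with the other lists, 23 were higher and 18 lower (51.9% called, against 21.6% of all genes), with a median difference of 0.07. The chemokine Ccl5 (4.76 ± 0.47), the helicase Helz2 (3.50 ± 0.18) and Epsti1 (2.55 ± 0.13), known for its interferon response in macrophages, had the largest differences upward among those called. Ly6e (-4.55 ± 0.21), a lipid-anchored surface protein that limits some coronaviruses, Tlr7 and the IgG receptor Fcgr1 (-4.24 ± 0.15) had the largest downward. Fcgr1 is also a macrophage marker.

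Genes best known as targets of interferon gamma were included for comparison. Of 11 measured GTPases of the guanylate-binding and immunity-related families, 4 were higher and 2 lower (54.5% called, against 21.6% of all genes). Gbp5 (2.14 ± 0.26), Gbp8 (2.07 ± 0.18) and Gbp4 (1.41 ± 0.33; adjusted p = 0.0514 without macrophage replicate 3) were higher, and Gbp7 (-3.55 ± 0.31) and Gbp3 (-0.84 ± 0.20) lower. In the blocked fit 4 were lower, and with array weights 5. Of 12 other responses to interferon gamma 7 were higher and 1 was lower (66.7% called), with a median of 0.92. Irf1, the tryptophan-degrading enzyme Ido1 (1.54 ± 0.24) and the proteasome activator Psme2 (1.54 ± 0.13) led upward. The lower member was the factor Batf2 (-0.76 ± 0.19; limma adjusted p = 0.0208), whose adjusted p was 0.0826 and 0.0798 without macrophage replicates 2 and 3 and 0.0568 over all probe sets.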

How the data were processed

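The deposited table holds log2 values of 35556 probe sets on 6 arrays, which the authors made with RMA in R 3.0.2, per the submitters' processing notes. Which arrays were normalized together, the genome build and any filtering were not stated there. RNA input was 6 ug per sample, per the labels.

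Of the probe sets 21789 carry 1 gene symbol, 1621 several and 12146 none in the platform's gene table, and names were checked against RefSeq (GRCm38.p6). Of several probe sets of a gene the one with the highest mean was kept, which left 19938 genes. Limma 3.58.1 (lmFit, eBayes, 2-sided, R 4.3.3) tested dendritic minus macrophage over all genes, with Benjamini-Hochberg adjustment and a threshold of 0.05. Python 3.11.15 with pandas 2.3.3 and matplotlib 3.10.9 did the rest. Precision is limited by the number of arrays.

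The members, lists, roles and alternatives were chosen with earlier results of these data known. Named are all members, the 3 called genes with the largest difference in each direction of each pathway list, and core pathway genes. The fit has no replicate block, and all values are from it unless the block is named. Deviations of same-numbered replicates from the population means correlated at 0.385, 0.147 and 0.272, all over 0.1, so the blocked result is given where it changes a call. What a number stands for is not in the labels, and 2 unmatched pairs also passed 0.1 (0.128 and 0.155).

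The limma step was tested on simulated data. Promoter windows are from RefSeq.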

Additional observations from a re-analysis of the deposited data

How the results depend on the processing

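The 17 alternatives were the replicate number as a block, leaving out each array or replicate 1 of both populations, 3 further normalizations, 2 filters on dim genes, all probe sets, the mean of probe sets, an intensity trend and array weights. Each measured member has 1 probe set, so the mean of probe sets could not change its values. The filters and the use of all probe sets also left the values of the members kept unchanged and altered only the test. The members called numbered 14 with all arrays and 11 to 15 when arrays were left out, and 15 with the replicate block, all 14 among them. They numbered 13 over all probe sets, 15 after a further quantile normalization and 16 with array weights. Demanding a 2-fold difference as well left 11 of 14 members and 2051 of 4312 genes. The member median of -0.31 became 0.24 when genes under the median level were left out, since the dim members are dropped there. Over members and named pathway genes, 1051 of 1103 repeated results kept their direction and side of the threshold, 38 lost a call, 9 gained one and 5 turned sign. With single arrays left out, Cmpk2 ranged from -0.0089 (without macrophage replicate 2) to 0.158 and Ifnb1 from -0.12 to 0.175, negative without dendritic replicate 2 or 3 or macrophage replicate 1. A further quantile normalization gave -0.0307 for Ifnb1. The block changed the call of no member except Parp14, and among named pathway genes that of Ifnar1. Dim genes such as the Ifit family may lie near background, where RMA compresses differences.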

Other observations

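One probe set (10451287) is assigned by the platform's gene table to Isg15 and Gm9706 together, so its signal cannot be given to either. It had log2 values of 5.98, 5.83 and 5.50 on the dendritic arrays, against 5.73, 5.25 and 5.29 on the macrophage arrays, a difference of 0.34 with overlapping values.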
